A study of Sus scrofa with 12 samples.

Results

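The response of m6A peaks to the compound OAA was measured here as the change, between treated and untreated cells, of the ratio of the paired libraries at each peak. Every one of the 25055 merged peaks of the deposited table was taken, each once, which is 25055 of 25055 in the series, and the peaks were not selected by any measured value. Of these, 24145 passed the filter on low counts and were tested. The 910 that did not pass held 0.0455% of all counts, and 124 of them had no count in any library. Of the tested peaks, 20784 lie under 1 gene and 3361 under several.

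The cells were wild-type IPEC-J2, an unmodified epithelial line from pig small intestine, kept in serum-containing medium. For 24 h they received the compound named OAA in the labels, at 25 µM (OAA) or at 0 µM (CON). The series title speaks of 2-oxindole-3-acetic acid, an indole derivative, of lipid accumulation, and of the proteins PSMD3 and YTHDF2. Replicates were numbered 1 to 3 under both treatments, and a treatment with a number is called a culture below. A culture gave 1 library labelled input and 1 labelled IP, so that 12 libraries formed 4 groups of 3. Separate growth of the cultures is not stated, and the p-values therefore rest only on how these samples differ among themselves, which can be technical variation. The labels name the same batch for all 12 libraries.

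N6-methyladenosine (m6A) is the most abundant internal base modification of mRNA. A writer complex built on METTL3 and METTL14 places it, the demethylases FTO and ALKBH5 can remove it, and YTH-domain readers such as YTHDF2 bind it, YTHDF2 leading bound mRNAs to decay. It lies typically in long internal exons and around stop codons. In MeRIP-seq, fragments of RNA pulled down with an antibody against m6A are sequenced next to fragments that were not selected, and the ratio of both reads out how much of a transcript's RNA at a site carries the mark. A change of that ratio with treatment therefore asks whether the mark, and not only the transcript, differs.

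The peak ratio is given throughout as log2 of labelled input over labelled IP, scaled so that the typical peak lies near 0 in every culture, and its change as OAA minus CON. This direction is that of the deposited table. Which libraries are the antibody part differs between the labels and the library codes, and the libraries labelled input held more counts in peaks, 16.5 to 23.0 against 3.71 to 4.61 in those labelled IP, in units of 1e6 counts. If the labels hold, a higher ratio means less antibody signal, and if they are exchanged it means more. Sizes, errors and tests are the same either way. The median count per peak was 134 to 187 on the input label and 46 to 57 on the IP label.

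Of the cultures, CON culture 1 and OAA culture 3 stood apart. They lay at -19.4 and -22.0 on the first principal component of the ratios, which held 27.3% of the variance, and the other 4 cultures lay at 7.81 to 15.2. On the second, with 21.0% of the variance, the CON cultures lay at 15.9, 17.2 and 1.03. The OAA cultures lay at -11.7, -4.90 and -17.5, so the treatments did not overlap there. On the third, which held nearly as much (17.95%), the treatments overlapped. The separation on the second component was not tested, and nothing is read from it. In CON culture 1 the library labelled input carried the difference at ribosomal protein peaks, as given with that list. FPKM values, here and below, are those of the libraries labelled IP, by their column codes. These libraries also form the lower part of the ratio, so an FPKM level is no separate measure beside it. They had high levels of the epithelial genes EPCAM (184 to 205 FPKM), KRT8 (350 to 424 FPKM) and CDH1 (122 to 140 FPKM), which were chosen after their values were seen. Of 9 enterocyte markers in the table, 2 exceeded 1 FPKM in all 6 libraries, sucrase-isomaltase (SI) at 10.9 to 15.4 FPKM and APOA1 at 3.63 to 5.52 FPKM. The summed enterocyte markers came to 17.8 to 20.1 FPKM in CON and 16.3 to 20.3 in OAA. Of 6 goblet markers, FCGBP exceeded 1 FPKM in all 6 libraries (2.23 to 3.34 FPKM) while MUC2 and TFF3 were listed at 0 in each, and the list summed to 3.10 to 3.55 FPKM in CON and 2.87 to 3.54 in OAA. Of 5 leukocyte markers, CD79A did (3.76 to 7.34 FPKM) while PTPRC was listed at 0, and the sum was 6.95 to 9.03 FPKM in CON and 4.90 to 8.63 in OAA. Of 3 endothelial markers in the table, CDH5 (3.14 to 4.43 FPKM) and PECAM1 (1.09 to 1.77 FPKM) did, and the sum was 5.52 to 6.73 FPKM in CON and 6.19 to 6.90 in OAA. No stem cell, fibroblast or enteroendocrine marker did, and LGR5, OLFM4, DCN and LUM were listed at 0 in every library. The labels name only the line IPEC-J2 for all 12 libraries, and whether any other cell type was present was not tested. In bulk RNA such as this, fewer cells of a type and less RNA per cell cannot be told apart.

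No peak changed its ratio with OAA at an adjusted p under 0.05. The edgeR quasi-likelihood test called 0 of 24145 peaks (0%), with a smallest adjusted p of 0.875. Without adjustment, 1079 peaks (4.47%) had p under 0.05, of which 531 (2.20%) lay higher and 548 (2.27%) lower in OAA. The 3 OAA ratios lay all above the 3 CON ratios in 1203 peaks (4.98%) and all below them in 1291 (5.35%), which together is 10.3% of the peaks. The median change was -0.01, the quartiles were -0.20 and 0.20, and 11813 (48.9%) lay above 0. Changes past 1 in either direction, which is 2-fold, were found in 1881 peaks, and 1490 of those had a mean count under 10 in the libraries labelled IP. DESeq2 called 1 peak, among 1157 at an unadjusted p under 0.05, and limma-voom called 0.

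**Figure D1:**
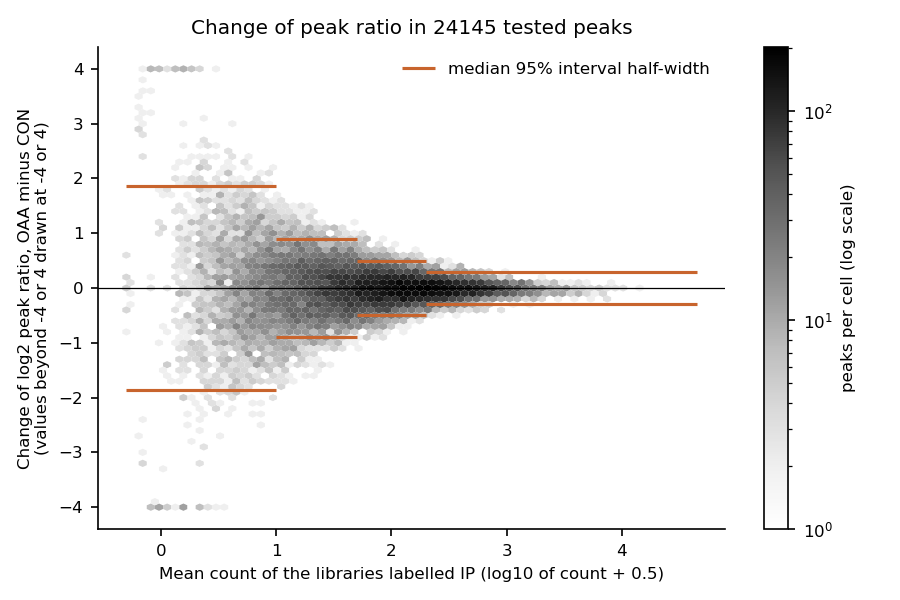
Change of the log2 peak ratio (OAA minus CON, y axis) against the mean count of the 6 libraries labelled IP (x axis, log10 of the count plus 0.5) for the 24145 tested peaks, shaded by the number of peaks per cell on a log scale, with changes beyond -4 or 4 drawn at -4 or 4. The lines give the median 95% interval half-width in 4 classes of count, which narrows from 1.86 under 10 counts to 0.29 at 200 counts or more.

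How small a change the data could hold was read from the 95% interval of each peak. Its half-width had a median of 0.63 over all peaks, 1.86 where the libraries labelled IP averaged under 10 counts, 0.90 at 10 to 50, 0.50 at 50 to 200, and 0.29 at 200 or more. The interval lay wholly within a 2-fold change in either direction for 13881 peaks (57.5%) and within 1.5-fold for 7250 (30.0%). Of the 5096 peaks with 200 counts or more, 5051 (99.1%) lay within 2-fold and 4500 (88.3%) within 1.5-fold. Of the 4183 peaks with under 10 counts, 9 lay within 2-fold. The spread between cultures of one treatment was a median SD of 0.34 over peaks, and 0.21 where the libraries labelled IP averaged 50 counts or more.

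Position in the transcript was read from the deposited annotation of peaks under 1 gene. Stop-codon peaks, at a position where m6A is known to be frequent, had the largest share of narrow intervals among classes of over 1000 peaks. Of these 5171, 3942 (76.2%) had intervals within 2-fold, and their median change was -0.01. At an unadjusted p under 0.05, 75 lay higher and 102 lower, together 3.42% against 4.47% of all peaks. Peaks wholly in coding sequence had a median change of -0.02 (5350 peaks, 60.3% within 2-fold), those in the 3' UTR one of 0.01 (3710 peaks, 57.0%) and those in the 5' UTR one of 0.02 (1383 peaks, 24.6%). Start-codon peaks had a median change of -0.02 (4444 peaks, 44.7%). Their median ratio was -0.10, -0.26 and -0.24 in CON cultures 1 to 3 and -0.27, -0.29 and -0.02 in OAA cultures 1 to 3. CON culture 1 and OAA culture 3 were thus the highest of their treatments, and the groups overlapped. At stop codons the medians were 0.30, 0.33 and 0.34 in CON and 0.34, 0.32 and 0.27 in OAA, which also overlapped. Long noncoding RNA genes had 559 tested peaks with a median change of 0.01, 29 of them at an unadjusted p under 0.05 (5.19%, against 4.47% of all peaks). The 1268 peaks spanning over 10000 bp had a median change of 0.00.

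The transcripts of the m6A machinery were themselves covered by tested peaks, most of them with intervals within 2-fold, and none was called. Some, such as the METTL3 start-codon peak, had too few counts to bound a change. For the writer complex, 9 of 10 listed genes had 31 tested peaks, with a median change of -0.03. Of these, 12 lay above 0, 1 (3.23%, against 4.47% of all peaks) had an unadjusted p under 0.05, and 25 had intervals within 2-fold. The peak with the smallest p was the one at the stop codon of METTL14 (8:105020731-105021005), the partner of METTL3 that helps to bind RNA. It had 414, 356 and 401 counts in the CON libraries labelled input and 324, 226 and 293 in the OAA ones, against 172, 204 and 127 and then 197, 175 and 204 in those labelled IP. Its ratios were -0.89, -0.77 and -0.67 in CON and -1.22, -1.53 and -1.34 in OAA, so all OAA cultures lay below all CON cultures. The change was -0.57 ± 0.21 (SE), with an adjusted p of 1.00 by edgeR.

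The other peaks of METTL14 did not share that direction throughout. Its 3' UTR peak lay at 0.85 ± 0.59 (SE) on 11 to 59 counts in any library, its coding-sequence peak at -0.24 ± 0.33 and its start-codon peak at -0.74 ± 0.62. All 4 peaks summed gave -0.40 ± 0.18 (SE, adjusted p = 1.00 by edgeR). METTL14 stood at 12.6 ± 0.0462 FPKM in CON against 12.5 ± 1.82 in OAA (SD, n = 3). METTL3, the catalytic subunit, had a coding-sequence peak at -0.18 ± 0.27 and a start-codon peak at 1.46 ± 0.88 (SE). The latter had 8, 9 and 8 counts in the CON libraries labelled IP and 8, 1 and 2 in the OAA ones. The 5 peaks of the scaffold VIRMA lay between -0.11 and 0.00, and their 95% intervals together spanned -0.38 to 0.27.

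Among the demethylases, FTO had its tested peak in coding sequence, a region of 17412 bp with 94 to 140 counts in the libraries labelled IP. Its ratios were 1.03, 0.86 and 0.78 in CON and 0.62, 0.55 and 0.20 in OAA. The OAA cultures lay below the CON cultures without overlap, at a change of -0.42 ± 0.19 (SE), with an adjusted p of 1.00 by edgeR. ALKBH5 lay at 0.15 ± 0.21 at its stop codon and 0.04 ± 0.13 (SE) at its start codon, and both sets of ratios overlapped.

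YTHDF2, the reader that the series title names, had 4 tested peaks. The strongest, in coding sequence (6:85722846-85723795), had 8223 to 11241 counts per library on the input label and 683 to 894 on the IP label. Its ratios were 1.64, 1.63 and 1.72 in CON and 1.85, 1.80 and 1.53 in OAA, and its change was 0.06 ± 0.10 (SE). The other coding-sequence peak lay at 0.05 ± 0.13 and the stop-codon peak at -0.18 ± 0.22. The start-codon peak (6:85716967-85718090) had 50, 61 and 50 counts in the CON libraries labelled IP and 37, 31 and 46 in the OAA ones. Its ratios were -0.26, -0.73 and -0.77 in CON and 0.31, 0.07 and 0.25 in OAA, with the OAA cultures all higher. That change was 0.80 ± 0.34 (SE), with an adjusted p of 1.00 by edgeR. All 4 peaks of YTHDF2 summed gave 0.05 ± 0.09 (SE), with a 95% interval half-width of 0.19, and its level was 29.8 ± 2.11 FPKM in CON against 27.2 ± 0.887 in OAA (SD, n = 3).

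PSMD3, a subunit of the regulatory particle of the 26S proteasome and the other protein of the title, had 2 tested peaks. At its stop codon the ratios were -1.76, -1.68 and -1.20 in CON and -1.08, -1.59 and -1.18 in OAA, which overlapped, at a change of 0.26 ± 0.16 (SE, adjusted p = 1.00 by edgeR). PSMD3 stood at 109 ± 0.563 FPKM in CON against 108 ± 10.0 in OAA (SD, n = 3). At its start codon, on 608 to 856 counts in the libraries labelled IP, the change was -0.01 ± 0.12 (SE). Over all 24 proteasome genes with a tested peak, of 32 listed, 31 peaks had a median change of -0.08. Of these, 12 lay above 0, and 2 (6.45%, against 4.47% of all peaks) had an unadjusted p under 0.05, both higher. One was the 5' UTR peak of PSMD1, the largest subunit of the base, at 1.08 ± 0.50 (SE), with 10, 8 and 8 counts in the CON libraries labelled IP and 5, 5 and 4 in the OAA ones.

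The readers had 29 tested peaks on 10 of 12 listed genes, with a median change of 0.04. Of these, 16 lay above 0, and 25 had intervals within 2-fold. An unadjusted p under 0.05 was found in 2 (6.90%, against 4.47% of all peaks), 1 in each direction. The start-codon peak of YTHDF1 lay at -1.48 ± 0.55 (SE, adjusted p = 1.00 by edgeR) on 6 to 18 counts in the libraries labelled IP. The other YTHDF1 peaks lay between -0.33 and 0.10. HNRNPA2B1, an RNA-binding protein counted among the indirect readers, had a 5' UTR peak whose OAA ratios all lay above the CON ratios, at 0.32 ± 0.21 (SE).

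**Figure D2:**
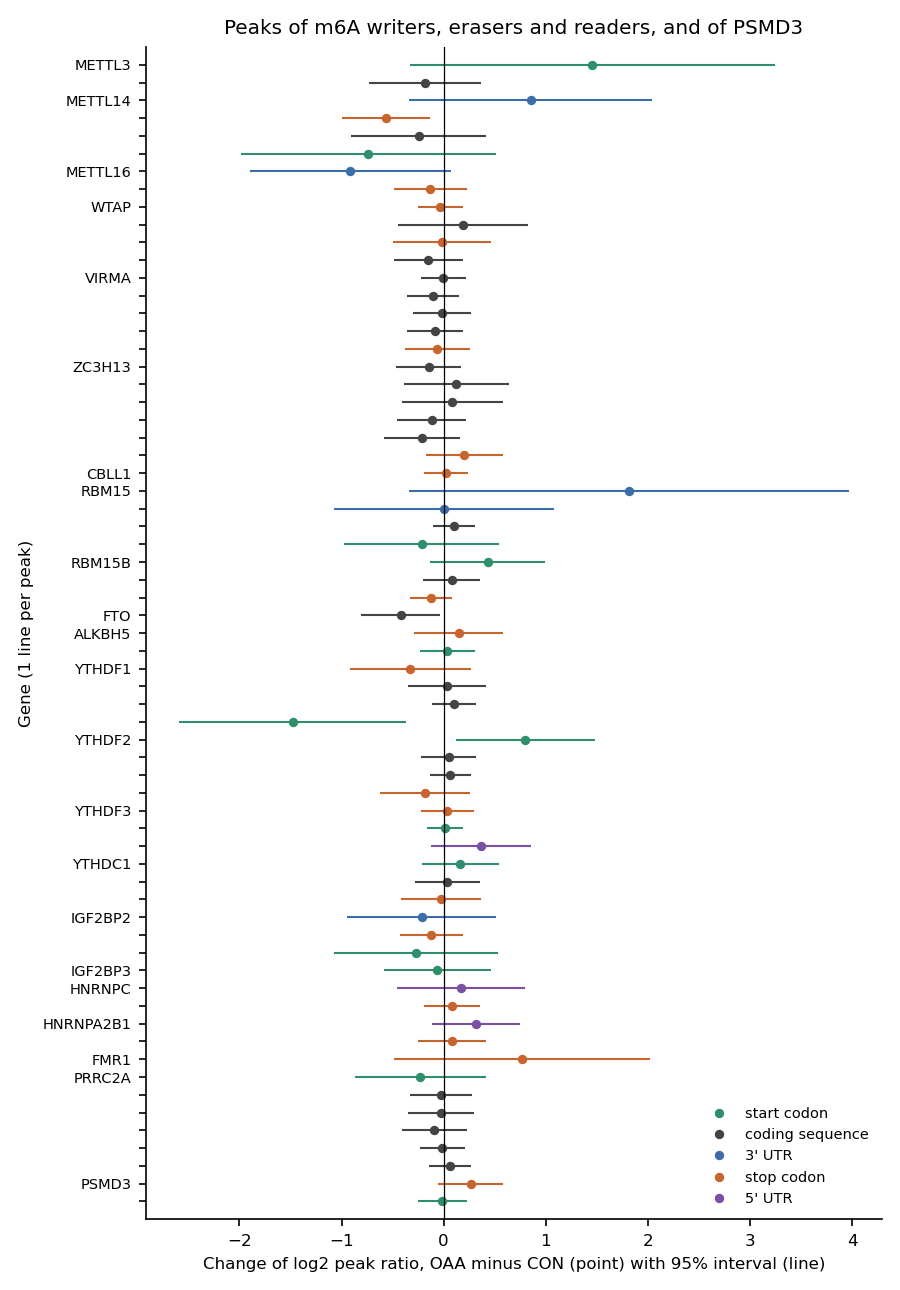
Change of the log2 peak ratio (OAA minus CON, points) with its 95% interval (lines) for the tested peaks of m6A writers, demethylases and readers and of PSMD3, 1 line per peak, coloured by transcript position and ordered by genome position within a gene. Most peaks lie near 0, and the wide intervals belong to peaks with few counts, such as the METTL3 start codon at 1.46.

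Gene groups named by the title's subject, lipid accumulation, showed no called peak. The list of fatty acid uptake and triglyceride assembly had 28 tested peaks with a median change of 0.08. Of these, 20 lay above 0 (71.4%, against 48.9% of all peaks), and 2 (7.14%, against 4.47% of all peaks) had an unadjusted p under 0.05. The peaks lie on 14 genes, so they are not independent, and the summed ratio of 10 of the 14 lay above 0. The median ratio of the list was -1.07, -1.33 and -0.62 in CON cultures 1 to 3 and -0.70, -0.89 and -0.53 in OAA cultures 1 to 3, which overlapped. As a set, this list was not tested. The smallest p of its peaks belonged to the stop-codon peak of GPAT3, an acyltransferase of the first step of glycerolipid synthesis, and it lay below 0. GPAT3 ratios were -1.47, -1.68 and -1.83 in CON and -2.08, -1.85 and -2.40 in OAA. Those groups did not overlap, at a change of -0.45 ± 0.16 (SE), with an adjusted p of 1.00 by edgeR. GPAT4 had 3 well-measured peaks at 0.18, 0.05 and 0.02.

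Fatty acid synthesis genes had 26 peaks with a median change of 0.00, 13 of them above 0. An unadjusted p under 0.05 was found in 1 peak (3.85%, against 4.47% of all peaks). This was the start-codon peak of ACACA, the acetyl-CoA carboxylase, at -1.76 ± 0.75 (SE) on 4 to 15 counts in the libraries labelled IP. SCD, the stearoyl-CoA desaturase, lay at -0.16 ± 0.16 at its start codon and at 0.07 ± 0.09 (SE) at its stop codon. Fatty acid oxidation and lipolysis genes had 38 peaks with a median of 0.07, 22 above 0. ACADS, the short-chain acyl-CoA dehydrogenase, had a coding-sequence peak at -1.12 ± 0.42 (SE, adjusted p = 1.00 by edgeR), on 35 to 63 counts in the libraries labelled IP, and a stop-codon peak at -0.28 ± 0.15.

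Cholesterol synthesis genes had 39 peaks with a median change of 0.00, 19 of them above 0. SCAP, the escort protein that carries the SREBP transcription factors out of the endoplasmic reticulum, had the smallest p of this list. Its coding-sequence peak (13:30258636-30258710) had 186, 151 and 206 counts in the CON libraries labelled input and 130, 80 and 112 in the OAA ones, with 113 to 160 in those labelled IP. Its ratios were -1.45, -1.44 and -1.46 in CON and -2.23, -2.49 and -2.16 in OAA, without overlap, at -0.82 ± 0.25 (SE), with an adjusted p of 1.00 by edgeR. Examples chosen for their small errors are the stop-codon peaks of MSMO1 (0.03 ± 0.10), SC5D (-0.07 ± 0.11) and IDI1 (0.12 ± 0.14, SE), enzymes of the sterol pathway.

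The aryl hydrocarbon receptor, a ligand-activated transcription factor that senses indoles among other compounds, had its own coding-sequence peak at ratios of 2.20, 2.14 and 2.22 in CON and 1.51, 1.70 and 1.61 in OAA. The groups did not overlap, and the change of this AHR peak was -0.57 ± 0.23 (SE), with an adjusted p of 1.00 by edgeR. AHR stood at 3.38 ± 0.302 FPKM in CON against 3.03 ± 0.422 in OAA (SD, n = 3). Of the 16 peaks of this list, 8 lay above 0, with a median of -0.02. TIPARP, a target of the receptor, lay at -0.10 ± 0.09 at its start codon and 0.07 ± 0.12 (SE) at the stronger of its stop-codon peaks.

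Stress genes, of the integrated stress response and the unfolded protein response, had 43 peaks with a median of 0.07, 24 of them above 0. The stop-codon peak of SESN2, a stress-induced leucine sensor, lay at -1.20 ± 0.38 (SE, adjusted p = 1.00 by edgeR). It had 12, 17 and 11 counts in the CON libraries labelled IP and 31, 28 and 18 in the OAA ones. The chaperones HSPA5 (-0.03 ± 0.09) and CALR (0.07 ± 0.09, SE) lay near 0 at their stop codons. Short-lived regulator mRNAs had 60 peaks with a median of -0.03, 26 above 0, and MYC, a transcription factor whose mRNA is a known m6A substrate, lay at -0.05 ± 0.08 at its stop codon and -0.07 ± 0.09 (SE) in coding sequence. Tight and adherens junction genes had 62 peaks with a median of 0.00, 32 above 0. The smallest p of these was that of a 5' UTR peak of TJP1, the junction scaffold, at 0.63 ± 0.26 (SE), with an adjusted p of 1.00 by edgeR. Claudin CLDN1 lay at -0.01 ± 0.08 (SE) at its stop codon.

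Ribosomal protein peaks had the smallest share above 0 among the described lists of over 10 peaks, and that share turned on a single library. Of 87 tested peaks on 62 of 77 listed genes, 14 (16.1%) lay above 0, against 48.9% of all peaks, with a median change of -0.15. None was called, and 1 (1.15%, against 4.47% of all peaks) had an unadjusted p under 0.05. The median ratio of the list was -0.87, -1.62 and -1.65 in CON cultures 1 to 3 and -1.74, -1.62 and -1.21 in OAA cultures 1 to 3. CON culture 1 stood above every other culture, OAA culture 3 came next, and the groups overlapped. The median level of these peaks in the libraries labelled input was 6.26, 5.46 and 5.66 log2 CPM in CON and 5.70, 5.81 and 5.80 in OAA, CON library 1 being the highest. In the libraries labelled IP it was 6.99, 7.09 and 7.14 in CON and 7.28, 7.13 and 6.96 in OAA. Without CON library 1 labelled input, 48 of 79 peaks lay above 0 with a median of 0.04, and without both libraries of CON culture 1, 62 of 87 with a median of 0.07. Without OAA library 1 labelled IP, 29 of 88 lay above 0 with a median of -0.07, and without CON library 1 labelled IP, 24 of 88 with a median of -0.12. Leaving out CON library 2 or 3 labelled input gave 9 and 7 of 79, with a median of -0.24 in both. With neither CON culture 1 nor OAA culture 3, 39 of 87 lay above 0. Over all 30 alternative settings the median of the list ran from -0.29 to 0.07, so some settings strengthened the shift.

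Of the 87 ribosomal peaks, 58 lie at start codons, and 6 of those were above 0 (median -0.16), while 6 of the 12 in the 5' UTR were (median 0.02). RPL7 at its start codon had ratios of -1.31, -1.66 and -1.74 in CON and -2.05, -1.77 and -1.52 in OAA, which overlapped, at -0.21 ± 0.13 (SE). The stop-codon peak of RPL8 lay at -0.07 ± 0.08 (SE). The start-codon peak of RPS3A had the smallest p of the list, at -1.56 ± 0.68 (SE, adjusted p = 1.00 by edgeR) on 13 to 28 counts in the libraries labelled IP. Its gene identifier is listed at 0 FPKM in all 6 libraries, and ribosomal protein genes have many near-identical copies between which reads may be divided, so single members are uncertain. Mitochondrially encoded mRNAs, with 8 peaks, had a median change of -0.02. Their median ratio was highest in OAA culture 3 (-1.16) and CON culture 1 (-1.27), and the other 4 cultures lay between -1.66 and -1.56. ND3, a subunit of complex I, lay at -0.11 ± 0.13 (SE) on 4049 to 5349 counts in the libraries labelled IP.

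**Figure D3:**
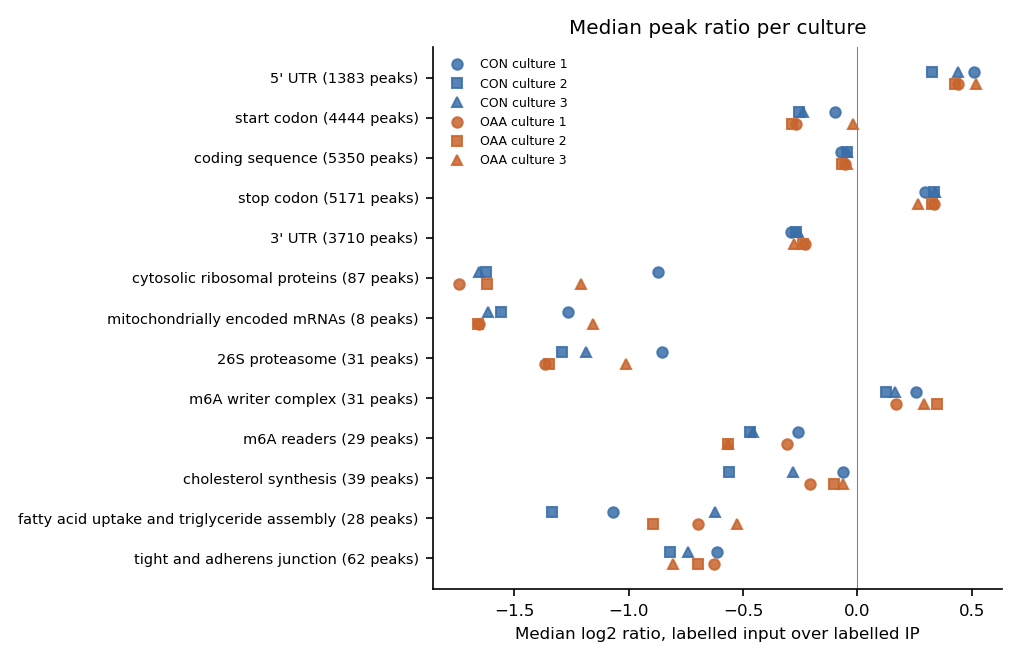
Median log2 peak ratio (labelled input over labelled IP) of each culture, by transcript position and for 8 of the gene lists, with CON in blue and OAA in orange and the number of tested peaks in brackets. For ribosomal protein peaks CON culture 1 lies at -0.87 and OAA culture 3 at -1.21, above the other 4 cultures at -1.74 to -1.62.

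The peaks with the smallest p are described next, as not passing, among the 16480 peaks with at least 10 counts on average in each group that have 1 named gene. Of those higher in OAA, the smallest p belonged to RIC8B, a chaperone and exchange factor of G protein alpha subunits, at a coding-sequence peak (5:13532268-13544597). It had 873, 695 and 933 counts in the CON libraries labelled input and 910, 852 and 842 in the OAA ones. In the libraries labelled IP it had 44, 53 and 28 in CON and 24, 18 and 24 in OAA. Its ratios were 2.14, 2.13 and 2.71 in CON and 3.28, 3.63 and 3.24 in OAA, without overlap, and the OAA libraries labelled IP were the low ones. The change was 1.10 ± 0.26 (SE), with an adjusted p of 0.875 by edgeR. RIC8B stood at 3.83 ± 0.620 FPKM in CON against 2.92 ± 0.241 in OAA (SD, n = 3).

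RXRB, a retinoid X receptor that pairs with lipid-sensing nuclear receptors, followed with a coding-sequence peak (7:25238445-25240333). Counts labelled input were 102, 80 and 111 in CON and 227, 154 and 96 in OAA, and those labelled IP were 88, 103 and 74 and then 66, 55 and 68. The ratios were -1.94, -1.93 and -1.74 in CON and -0.16, -0.42 and -1.37 in OAA. All OAA cultures lay above CON, culture 3 least. The change was 1.30 ± 0.32 (SE), with an adjusted p of 0.875 by edgeR, and the level of RXRB was 8.87 ± 0.215 FPKM in CON against 9.59 ± 0.645 in OAA (SD, n = 3).

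EMC10, a subunit of the membrane protein insertion complex of the endoplasmic reticulum, had the largest counts of the 10 higher peaks in the libraries labelled input. Its 3' UTR peak (6:55321941-55322240) had 1364, 884 and 1342 such counts in CON and 1422, 1472 and 1166 in OAA. Its ratios were -0.14, -0.28 and -0.31 in CON and 0.15, 0.42 and 0.32 in OAA, at a change of 0.53 ± 0.15 (SE, adjusted p = 1.00 by edgeR). PRKX, a protein kinase related to protein kinase A, had a 3' UTR peak at ratios of -0.97, -1.20 and -1.13 in CON and -0.31, -0.47 and -0.23 in OAA. FOSL2, an AP-1 transcription factor, had a coding-sequence peak with 464 to 586 counts in the libraries labelled IP. Its ratios were -2.32, -2.24 and -1.78 in CON and -1.57, -1.76 and -1.53 in OAA, at a change of 0.48 ± 0.15 (SE). UPF1, the helicase of nonsense-mediated decay, had a 3' UTR peak that lay 0.59 ± 0.18 (SE) higher. The remaining higher peaks were those of PTPRG, a receptor tyrosine phosphatase (5' UTR, ratios of -2.06, -2.56 and -0.85 in CON and -0.11, -0.10 and -0.60 in OAA), ICA1L (stop codon, 1.64 ± 0.50), WDR24, a part of the amino acid sensing GATOR2 complex (coding sequence, 0.97 ± 0.30), and AP5Z1, an adaptor of endosomal sorting (3' UTR, 1.52 ± 0.47, SE). In each of the 10, the OAA cultures lay above the CON cultures without overlap, against 4.98% of all tested peaks. The peaks were chosen by small p, so nothing is read from that.

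Of the peaks lower in OAA, the smallest p was that of MRPL33, a protein of the large mitochondrial ribosomal subunit, at its stop codon (3:111428906-111429080). Counts labelled input were 271, 236 and 233 in CON and 172, 182 and 162 in OAA, and counts labelled IP were 183, 152 and 151 and then 210, 247 and 247. The ratios were -1.59, -0.94 and -1.70 in CON and -2.22, -2.33 and -2.47 in OAA. Every OAA ratio lay below every CON ratio, with lower counts labelled input and higher counts labelled IP. The change was -0.94 ± 0.22 (SE), with an adjusted p of 0.875 by edgeR. MRPL33 stood at 18.0, 14.4 and 14.2 FPKM in CON and 17.9, 21.0 and 22.0 in OAA, which overlapped.

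CECR2, a bromodomain protein of chromatin remodelling, had a stop-codon peak (5:69741567-69741816) at ratios of 0.44, 1.38 and 1.18 in CON and -0.36, -0.57 and -0.17 in OAA, at -1.43 ± 0.38 (SE). GPC1, a cell-surface heparan sulfate proteoglycan, had a 3' UTR peak (15:139484118-139484217) with 304, 169 and 226 counts labelled input in CON and 164, 134 and 144 in OAA. Its ratios were -1.50, -1.74 and -2.04 in CON and -2.49, -2.85 and -2.32 in OAA, at -0.82 ± 0.22 (SE). MACC1, a regulator of the MET receptor gene, had a coding-sequence peak at 2.61, 2.11 and 2.78 in CON and 1.22, 1.03 and 1.73 in OAA, on 17 to 42 counts in the libraries labelled IP.

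The stop-codon peak of KLC2, a kinesin light chain, lay at -0.79 ± 0.23, and the coding-sequence peak of POM121, a nuclear pore protein, at -1.40 ± 0.42. The start-codon peak of SNRPF, a core protein of spliceosomal particles, lay at -0.99 ± 0.31, and the coding-sequence peak of PROB1 at -1.31 ± 0.39 (SE). SFPQ, a splicing factor of paraspeckles, had the largest counts, 604 to 936 in the libraries labelled IP, and was the 1 peak of the 10 whose groups overlapped. Its ratios were -1.53, -1.86 and -1.70 in CON and -2.49, -2.14 and -1.80 in OAA, at -0.46 ± 0.14 (SE, adjusted p = 1.00 by edgeR). SCAP, described with cholesterol synthesis, completes the 10. The count with all OAA cultures below CON is 9 of 10, against 5.35% of all tested peaks, and it too follows from the choice by p.

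**Figure D4:**
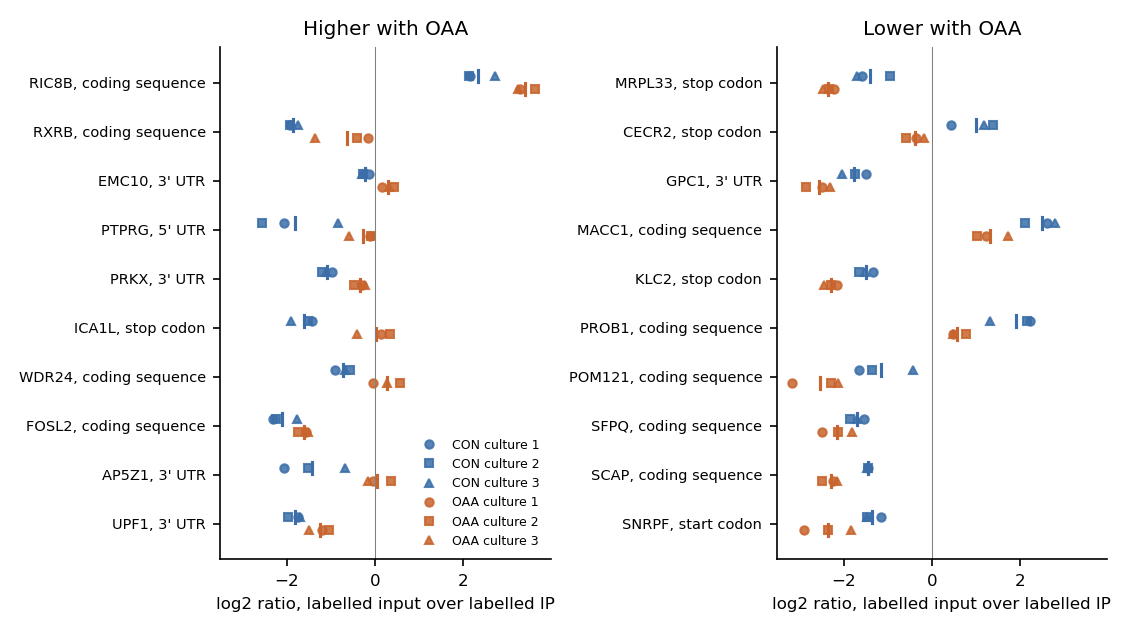
Log2 peak ratio (labelled input over labelled IP) of each CON culture (blue) and OAA culture (orange) at the 10 peaks per direction with the smallest unadjusted p, with vertical bars at the means of 3 cultures. The groups are apart in 19 of the 20 peaks and overlap at SFPQ, and no peak passed adjustment over 24145 peaks.

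Summing the peaks of each gene gave one ratio per transcript with more counts behind it. EdgeR called 0 of 9097 genes (0%), and 330 (3.63%) had an unadjusted p under 0.05. The median 95% interval half-width was 0.42. ITPKB, an inositol trisphosphate kinase with 2 peaks, had the smallest p among those higher. Its ratios were 1.52, 1.07 and 0.98 in CON and 2.54, 1.90 and 1.84 in OAA, at 0.90 ± 0.25 (SE, adjusted p = 1.00 by edgeR). It was followed by NFKBIL1, a nuclear protein related to the NF-kB inhibitors, at 0.51 ± 0.15, the RNA helicase DDX54 at 0.35 ± 0.11, and BTBD7 at 0.35 ± 0.12 (SE), which has 6 peaks.

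Among genes with a lower summed ratio, a gene that the tables call env, the name of retroviral envelope genes, had 4 peaks and 5025 to 7836 counts in the libraries labelled IP. Its ratios were -0.08, -0.16 and -0.21 in CON and -0.52, -0.54 and -0.31 in OAA, without overlap, at -0.31 ± 0.08 (SE, adjusted p = 1.00 by edgeR). Without both libraries of OAA culture 3 the env sum was called at -0.39 (adjusted p = 0.0118 by edgeR), and without CON culture 1 as well at -0.37 (adjusted p = 0.00605 by edgeR). OAA culture 3 is the OAA culture nearest to CON here, and these p-values are not corrected for the choice of what to leave out. NUAK2, a kinase related to AMPK, had 3 peaks and ratios of 0.61, 0.40 and 0.36 in CON and -0.12, -0.18 and -0.28 in OAA, at -0.65 ± 0.17 (SE). ICA1L, MRPL33, MACC1 and SNRPF, also selected, have 1 peak each and rest on the peaks given above.

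Whether peaks of one gene changed by different amounts was tested on 5499 genes with 2 or more peaks. No gene was called (0 of 5499, 0%, smallest adjusted p 0.565), and 326 (5.93%) had an unadjusted p under 0.05. No single peak was called against the rest of its gene (0 of 17198, 0%). The smallest adjusted p of a peak, 0.369, was that of the coding-sequence peak of RXRB, which lay 1.47 above the other peaks of its gene. PTP4A3, a protein tyrosine phosphatase, had the smallest gene-level p, 0.000146. Its coding-sequence peak lay at -1.36 ± 0.49 and its 5' UTR peak at 1.29 ± 0.46 (SE), in opposite directions, on 14 to 52 counts in the libraries labelled IP. In GALNT11, TRAPPC5, PRELID2 and HS1BP3, next in order, a stop-codon or 3' UTR peak with 160 counts or more in each library labelled IP lay between -0.05 and 0.13. The partner peak of each had at most 16 counts in any library labelled IP and carried the difference.

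For 3 peaks under 1 named gene a call appeared when 1 library was left out, and in each that library stood apart from the others of its group. These calls came from leaving out each of the 12 libraries in turn over all peaks. Removing the library that disagrees also removes spread, and the adjusted p-values are not corrected for that search. Nothing is therefore read from their small size. ITGA3, an integrin subunit that pairs with integrin beta 1 to bind laminin, has a start-codon peak (12:26234753-26235305). It had 532, 525 and 400 counts in the CON libraries labelled IP and 612, 163 and 167 in the OAA ones. OAA library 1 lay with CON, and the other OAA libraries lay below. Counts labelled input were 522, 323 and 539 in CON and 521, 349 and 476 in OAA. With all libraries the change was 0.74 ± 0.63 (SE, adjusted p = 1.00 by edgeR), and without OAA library 1 labelled IP it was 1.64 (adjusted p = 1.51e-05 by edgeR). The 3' UTR peak of ITGA3 with 5659 to 7323 counts in the libraries labelled IP lay at 0.00 ± 0.07 (SE), and the level of the gene was 204 ± 8.75 FPKM in CON against 211 ± 11.1 in OAA (SD, n = 3).

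ARPC5, a subunit of the actin-nucleating ARP2/3 complex, had 1 tested peak, at its start codon (9:124845375-124848086). It had 127, 157 and 306 counts in the CON libraries labelled IP and 402, 451 and 433 in the OAA ones, CON library 3 lying between. The change was -0.71 ± 0.45 (SE, adjusted p = 1.00 by edgeR) with all libraries and -1.27 without CON library 3 labelled IP (adjusted p = 0.00957 by edgeR). Its level was 57.9 ± 3.70 FPKM in CON against 58.4 ± 3.82 in OAA (SD, n = 3).

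A gene that the tables call pro-pol, a name of retroviral genes, had a stop-codon peak (5:92187533-92188032) with 2851, 2629 and 2617 counts in the CON libraries labelled IP. The OAA ones had 746, 705 and 2470, library 3 lying with CON. Counts labelled input ran from 11436 to 17195. The change was 1.23 ± 0.61 (SE, adjusted p = 1.00 by edgeR) with all libraries and 2.11 without OAA library 3 labelled IP (adjusted p = 1.98e-19 by edgeR). The other 4 peaks of this gene lay between -0.68 and 0.51, and the gene stood at 0.705 to 0.920 FPKM. Retroviral genes occur in many copies between which reads may be divided, so the source of these counts within the genome is uncertain.

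**Figure D5:**
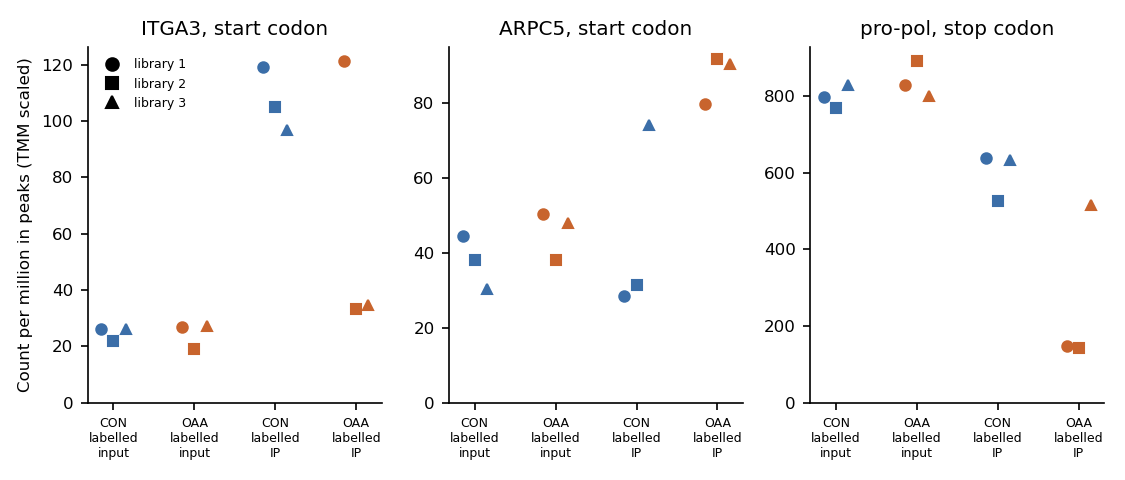
CPM in peaks (TMM scaled, y axis from 0) of each library at 3 peaks, by treatment and label, with CON in blue and OAA in orange and the library number as symbol. Among the libraries labelled IP, OAA library 1 lies with CON at ITGA3, CON library 3 lies apart from the other CON libraries at ARPC5, and OAA library 3 lies with CON at pro-pol.

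Such jumps were counted over all tested peaks as 1 library at least 2-fold away from the other 2 of its group, which lay within 25% of each other, at a group mean of 100 counts or more. This rule was set after the 3 peaks had been seen. It found 97 peaks, 87 of them through a library labelled input and 10 through one labelled IP. On the input label 15688 peaks in CON and 15674 in OAA had enough counts, against 8704 and 9206 on the IP label. The 87 and the 10 thus come from unlike numbers of peaks and are not directly comparable. CON library 1 labelled input had the most, 23, of which 16 lay above its group. The largest of these steps were at another peak named pro-pol (9:138899627-138900126, 3.40-fold), at PLEKHO1 (2.58-fold) and at BRD7 (2.46-fold). Also among the 16 were RPL34, RPL4 and RPL18 of the ribosome and COX8A and UQCR10 of the respiratory chain. These were picked after the values were seen. OAA library 3 had the most of the libraries labelled IP, 6. Start-codon peaks made up 34.0% of the 97 peaks. They were 14.0% of the tested peaks with a mean of 100 counts or more over all 12 libraries. That set is stricter than the rule, which asks for this mean in 1 group only, so the shares are not directly comparable.

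Each side of the ratio was also compared between treatments, with the same libraries. In the libraries labelled input, edgeR called 3 of 24145 peaks (0.0124%), and 1347 (5.58%) had an unadjusted p under 0.05. A peak shared by CD2BP2 and MYL11 (3:17960047-17960146) had 69, 38 and 88 counts in CON and 172, 141 and 124 in OAA, and rose by 1.19 on the log2 scale (adjusted p = 0.0171 by edgeR). A peak shared by LACC1 and CCDC122 (11:23159604-23159653) had 16, 16 and 14 counts in CON and 43, 66 and 47 in OAA, and rose by 1.75 (adjusted p = 0.0176 by edgeR). Both lie under 2 genes, so their transcript is uncertain, and the changes of their ratios, 1.16 and 1.60, did not pass adjustment. Without CON library 1 or OAA library 2 labelled input neither peak was called. The CD2BP2 and MYL11 peak was also lost without CON library 2 or OAA library 1, and the LACC1 and CCDC122 peak without CON library 3 or OAA library 3. In the libraries labelled IP 0 peaks (0%) were called, and 1044 (4.32%) had an unadjusted p under 0.05.

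The raw yield of counts in peaks, before scaling, was compared last. Labelled input over labelled IP, summed over all peaks, was 2.44, 1.89 and 2.63 on the log2 scale in CON and 2.22, 2.18 and 2.12 in OAA, so the OAA cultures lay within the range of CON. The means were 2.32 ± 0.388 and 2.17 ± 0.0473 (SD, n = 3), and the difference of -0.15 had p = 0.6 in a two-sided exact permutation test, whose smallest possible p is 0.1. Scaling removes this quantity from the peak changes above, so a uniform shift of all peaks would be seen in this sum, together with any difference of sequencing depth, and nowhere else.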

How the data were processed

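The authors deposited read counts of 12 libraries in merged m6A peaks, per the file headers, and FPKM values per gene, in columns coded as those labelled IP. Bowtie2 and HISAT2 were used, per the submitters' processing notes; for their versions and roles, the peak caller and the genome build, nothing was given in the sources used. Coordinates are those of the deposited table, with 1 added to the start.

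Counts were tested as deposited with edgeR 4.0.16 in R 4.3.3: TMM scaling, default filtering, robust quasi-likelihood F tests on 4 group means, and the change of the ratio as contrast. The log2 ratios of the deposited table and its p-values were not used. A feature was called at an adjusted p under 0.05 (Benjamini-Hochberg, over all features tested). Genes were summed over peaks under 1 gene, and peak usage was tested with diffSpliceDGE. Ratios per culture add 0.5 counts. TMM sets the typical peak to 0, so changes are relative. Counts in peaks are not library totals. DESeq2 1.42.0, limma 3.58.1 (voom) and the settings of the closing section were alternatives, and the procedure was tested on simulated data.

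Peaks named without a list are the 10 per direction with the smallest p under 1 named gene with at least 10 counts on average in each group. The rule adds the peak with the smallest p of each list, every peak of YTHDF2, PSMD3, METTL3, METTL14, FTO and ALKBH5, and 5 genes per direction. No tested peak met its part on groups at 0. List members named beyond the rule were chosen after their values were seen, for small errors. The peaks, lists and rules were chosen with earlier results of these data known. The single DESeq2 call and some other selected items are not reported here.

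Replicates differed beyond sampling noise in every group (chi-square per peak 2.05 to 8.86).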

Additional observations from a re-analysis of the deposited data

How the results depend on the processing

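The count of peaks whose ratio changed stayed at 0 of those tested under relative log expression scaling, library size alone, both count filters, limma-voom, limma on ratios per culture, peaks under 1 gene and peaks of 10000 bp or less. The replicate block by culture and that by number also left 0 peaks called, and with the block by number the labelled-input comparison called 3 peaks, as without it. Pairing was checked on 12944 peaks. Deviations of same-numbered cultures across treatments correlated at -0.19 to 0.02, so the numbers were not taken to pair CON with OAA. Deviations of both libraries of a culture correlated at -0.04 to 0.20. Within its treatment, the library labelled IP that correlated best had the same number in CON cultures 2 and 3 and OAA cultures 1 to 3, but not in CON culture 1. The main test has no block for the culture, while the ratios per culture join both libraries by number. DESeq2 called 1 peak for the ratio (adjusted p = 0.0368) and 8 peaks in the libraries labelled input, where limma-voom called 1 and edgeR 3. Leaving out single libraries gave 0 to 1 called peaks for the ratio, 0 to 1 genes, 0 to 1 genes for peak usage, 0 to 5 peaks labelled input and 0 to 2 labelled IP. Leaving out both libraries of a culture gave 0 to 1, 0 to 2, 0 to 1, 0 to 7 and 0 to 4. Without CON culture 1 and OAA culture 3, a setting chosen after seeing the data, the numbers were 1, 2, 1, 1 and 5. Peak usage was called for FOSL2 without CON library 3 labelled input (adjusted p = 0.0220 by edgeR), for ITGA3 without OAA library 1 labelled IP (1.59e-05) and for pro-pol without OAA library 3 labelled IP (1.54e-14). These p-values, too, are not corrected for the search over libraries left out. The difference of the summed ratio ran from -0.36 to 0.01 without a culture each.

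Of 1770 values of 61 named peaks and genes, 1732 kept direction and side of the threshold and 2 (env) became called. The other 36 turned sign, 35 of them in settings that leave out a library. They belong to 12 features whose change in the main test lay between -0.2438 (METTL14 coding sequence) and 0.1472 (ALKBH5 stop codon). The cause was not tested. Without single libraries the turned features ranged from -0.0802 to 0.0299 (PSMD3 start codon), -0.0115 to 0.1261 (other YTHDF2 coding peak), -0.1846 to 0.0228 (ND3), -0.0272 to 0.1555 (ALKBH5 start codon), -0.3762 to 0.0312 (METTL3 coding sequence), -0.3923 to 0.0653 (METTL14 coding sequence), -0.0044 to 0.1793 (ALKBH5 sum) and -0.2905 to 0.0818 (METTL3 sum). Without both libraries of a culture, values that turned were 0.0299 and 0.0550 (PSMD3 start codon, also 0.0157 with library size alone), -0.0437 and -0.0124 (other YTHDF2 coding peak), -0.0019 (stronger YTHDF2 coding peak), -0.0084 (YTHDF2 sum), 0.0201 (ND3), -0.0842 and -0.0637 (ALKBH5 start codon and sum), -0.0285 and -0.0443 (ALKBH5 stop codon), 0.0258 and 0.0010 (METTL3 sum) and 0.0190 and 0.1898 (METTL14 coding sequence). Without CON culture 1 and OAA culture 3 they were 0.0114 (METTL3 sum), 0.0818 (METTL14 coding sequence) and -0.0274 (PSMD3 sum). The median of all peaks moved from -0.0072 to 0.0210 with library size alone. Depth limits what could be seen: where the libraries labelled IP averaged under 10 counts, 9 of 4183 peaks were bounded within 2-fold.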
